A study of Homo sapiens with 3 samples.

Results

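The subject is a set of 33 genes of the amino acid response, led by the transcription factor gene ATF4, in cells of the MCF10Ca1h line. The genes were taken from a list of symbols and looked up by Ensembl gene ID, and all 33 were found among the 56632 gene IDs of the deposited tables. MCF10Ca1h is an established, tumour-forming human line of the MCF10 breast epithelial series. RNA was measured by stranded total RNA sequencing in 3 libraries, 1 per group. The GSK484 library came from cells given this inhibitor of the citrullinating enzyme PADI4 for 72 h. The CON library came from cells that had a control compound for the same 72 h, and the NT library from cells without treatment. The labels give no dose, and no time in culture for NT. They call the control compound GSK107, while its table is named for GSK106, so it is called the control compound here. All 3 libraries share the cell line and a culture medium with horse serum, and the labels name no withdrawal of an amino acid. The study's title concerns PADI4 in breast cancer stem cells.

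Amino acid shortage leaves transfer RNAs uncharged, which activates the kinase GCN2, and GCN2 phosphorylates the initiation factor eIF2. Most protein synthesis then slows, while ribosomes reach the main reading frame of ATF4 more often, so that ATF4 protein can rise without more ATF4 RNA. ATF4 binds C/EBP-ATF response elements of genes that make, import or charge amino acids onto transfer RNA, and of genes for stress effectors such as DDIT3 and CHAC1. RNA values such as those here therefore bear on the transcripts of ATF4 and of its targets, not on ATF4 protein.

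The element bound by ATF4 is shown first, because it is the sequence feature that the targets are known for. A core of it, TGATGNAA, was searched on both strands in RefSeq windows that run from 250 bases before an annotated start to 50 after it (build GRCh38.p14). Windows were found for 29 of the 33 genes. The core was in at least 1 window of 10 of these 29 genes (34.5%), against 4.46% of the 27305 genes in the table and 2.73% of the 9929 with at least 1 CPM in a library. CPM is the read count of a gene scaled to the size of its library. By window the shares were 22.2% of 45 for the set, 3.62% of 35116 for all genes and 2% of 14549 for those with at least 1 CPM. The genes were listed for the amino acid response, whose targets are known for this element, so the excess is no independent result. A match is a description of these letters, and binding was not measured. In the sites below, written 5′ to 3′ so that the core reads TGATGNAA, the core is in capitals and up to 10 bases on each side are in lower case.
ASNS (chr7:97872459-97872486, minus strand): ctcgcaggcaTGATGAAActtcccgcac
CHAC1 (chr15:40953252-40953279, minus strand): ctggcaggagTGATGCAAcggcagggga
AARS1 (chr16:70289676-70289703, plus strand): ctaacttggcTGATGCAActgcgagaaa
GARS1 (chr7:30594835-30594862, minus strand): gctcggagcaTGATGAAAtcgccgcgta
MARS1 (chr12:57488054-57488081, minus strand): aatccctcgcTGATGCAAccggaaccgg
NARS1 (chr18:57621805-57621832, minus strand): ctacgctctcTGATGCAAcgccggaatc
SLC1A4 (chr2:64989382-64989409, minus strand): cggctggagaTGATGCAAacgggagccg
SLC1A5 (chr19:46784894-46784921, minus strand): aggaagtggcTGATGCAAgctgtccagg
SLC3A2 (chr11:62881726-62881748, minus strand): ggagcTGATGTAAggagtcctgc
SLC7A1 (chr13:29595664-29595691, minus strand): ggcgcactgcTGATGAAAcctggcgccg
The N was C in 6 of the 10 sites, A in 3 and T in 1. The core lay on the strand of the gene in 4 of them, among these ASNS, and on the other strand in 6. Counted on the gene's strand, it began 68 bases before the start of ASNS and 209 before that of CHAC1, while in SLC7A1, NARS1 and SLC3A2 it lay after the annotated start. The site in ASNS, the gene of asparagine synthetase, stood in this promoter window of an annotated start, with the core in capitals and the rest in lower case.
ASNS (chr7:97872359-97872658, minus strand): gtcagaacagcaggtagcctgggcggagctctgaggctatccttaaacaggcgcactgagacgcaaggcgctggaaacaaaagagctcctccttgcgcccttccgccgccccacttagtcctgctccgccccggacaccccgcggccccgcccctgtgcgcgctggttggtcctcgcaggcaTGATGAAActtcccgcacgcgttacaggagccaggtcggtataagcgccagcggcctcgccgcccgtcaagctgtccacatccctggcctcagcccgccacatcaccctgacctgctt

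Total expected counts were 77220120 in the GSK484 library, against 92980847 in CON and 70555229 in NT. There were no replicates, so no difference below has a check against replicate spread and no test between conditions was possible. Intervals are exact conditional binomial (Clopper-Pearson) intervals of 95% and cover counting error only. Calls of higher or lower here need a log2 fold of at least 0.32 in size, which is a 25% excess of the larger value over the smaller, an interval that excludes no difference, and at least 1 CPM in the higher library. A few values are also given after GC and length correction, that is, after subtraction of a fitted curve over transcript length and GC content. All 9 mammary epithelial markers looked up, such as EPCAM, KRT5 and TP63, were above 1 CPM in every library. Of 9 markers of fibroblasts, leukocytes and endothelium, COL3A1, PTPRC and CD3E were at 0 in every library and COL1A1, at 5.88 to 7.56 CPM, was the highest. COL1A1 was called higher in GSK484 against NT (log2 fold 0.36). The endothelial marker CDH5, at 0.94 CPM in the GSK484 library, against 1.57 in CON and 0.97 in NT, was called lower in GSK484 against CON (-0.74) and higher in CON against NT (0.69). Their part in the results was not tested. In such bulk RNA, fewer cells with a transcript and less of it per cell cannot be told apart.

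All 33 genes reached 1 CPM in each library. On the per-length scale of the deposited TPM, a transcript abundance that accounts for length, they summed to 3496 in the GSK484 library, against 3458 in CON and 3510 in NT, or 0.350% of all TPM in the GSK484 library, 0.346% in CON and 0.351% in NT. In every library 28 of the 33 lay above the median TPM of the genes at 1 CPM or more, which was 12.2 TPM for GSK484, 11.2 for CON and 12.4 for NT. DDIT4, a gene whose protein restrains mTORC1 signalling, had the highest TPM of the set, at 821 in the GSK484 library, against 951 in CON and 869.9 in NT. ATF4 itself came next, at 369 TPM in the GSK484 library, against 354 in CON and 333 in NT. At the other end stood SLC1A4, a transporter of alanine, serine and other neutral amino acids, at 0.62 TPM in the GSK484 library, against 0.58 in CON and 0.52 in NT. CHAC1, a gene for an enzyme that breaks down glutathione and is strongly induced when ATF4 and DDIT3 are active, was at 1.13 TPM in the GSK484 library, against 0.93 in CON and 0.86 in NT. Abundant transcripts of ATF4, transporters and enzymes stood beside scarce ones of CHAC1 and SLC1A4.

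**Figure D1:**
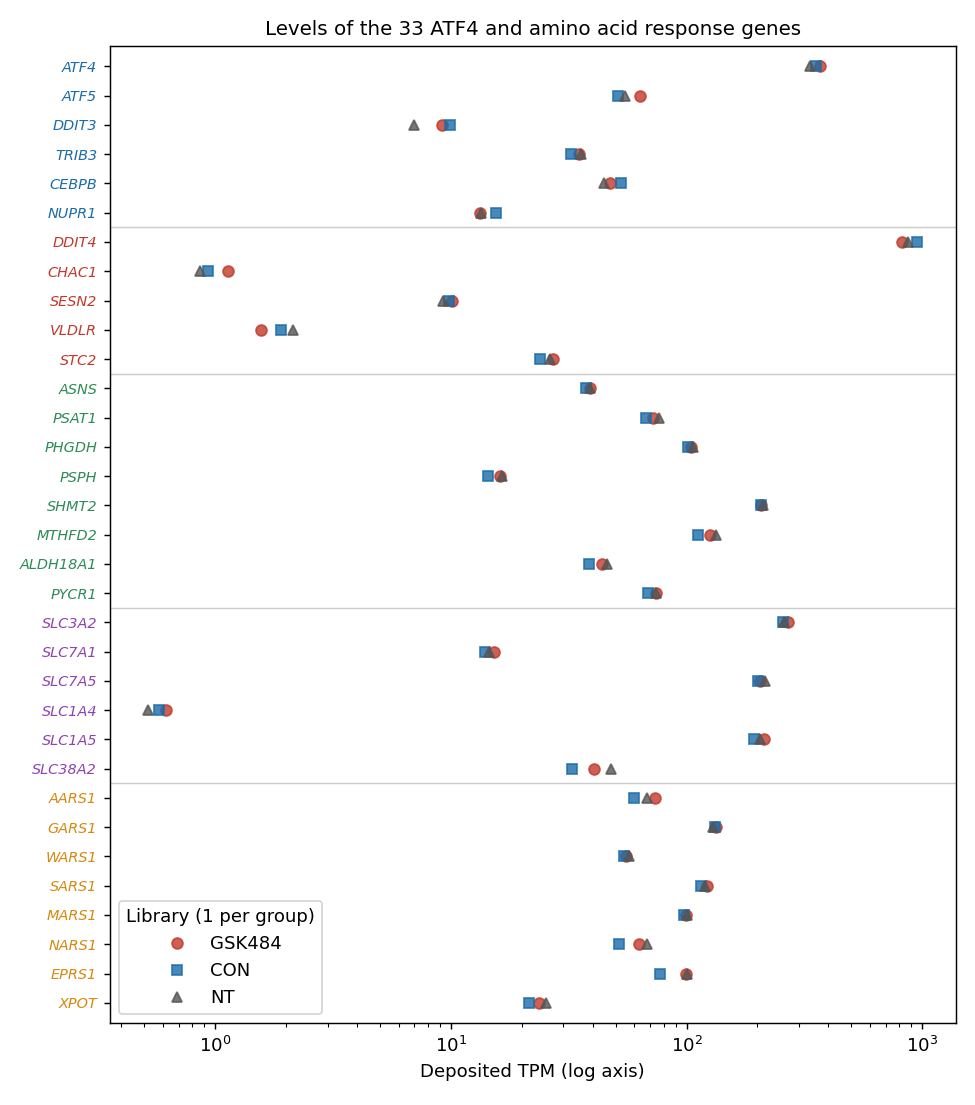
Deposited TPM (log axis) of each of the 33 genes in the GSK484 (circle), CON (square) and NT (triangle) libraries, 1 library per group, with gene names coloured by role. DDIT4 and ATF4 lie at the high end and SLC1A4 and CHAC1 at the low end, and for most genes the 3 symbols nearly coincide.

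The PADI4 inhibitor and the control compound can be compared at matched time in GSK484 against CON. No gene of the set was called higher and 2 were called lower, DDIT4 and VLDLR, or 6.06% of the 33. Over all 13199 genes compared, 8.99% were called higher and 4.48% lower. The median log2 fold was -0.035 over the 33 genes and -0.0056 over all genes compared, and the median absolute log2 fold was 0.07 and 0.11. Beyond counting error, whatever the size, 9 genes were higher (27.3% of the set, 26.9% of all genes) and 13 were lower (39.4% of the set, 27.4% of all genes), and 11 were within it. By a 2-fold minimum none was called in either direction, where 0.197% of all genes were higher and 0.273% lower. The directions of small folds depend on the scale, since 13 of the 33 log2 folds were above 0 on the CPM scale and 27 on the TPM scale, where 9525 of all 13199 were above 0. Relative to the median of all genes, which TPM moved to 0.097, the median of the set stayed close, at 0.086.

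The first role is that of transcription factors and regulators. ATF4 (ENSG00000128272) was at 398 CPM in the GSK484 library, against 411 in CON and 355 in NT. GSK484 lay within a few percent of CON, with a log2 fold of -0.05 (interval -0.07 to -0.03), and the sign turned under TPM, at 0.06, and after GC and length correction, at 0.04. ATF5, a related bZIP factor gene that is also under eIF2-controlled translation, was at 96.3 CPM in the GSK484 library, against 86.0 in CON and 84.7 in NT. It was the highest of these 6 genes in fold, at 0.16 against CON (interval 0.12 to 0.21), still short of a call. DDIT3 (ENSG00000175197), which encodes the stress factor CHOP, was at 6.04 CPM in the GSK484 library, against 6.97 in CON and 4.47 in NT. Both treated libraries were above NT, and GSK484 was below CON by a log2 fold of -0.21 (interval -0.38 to -0.03), which was -0.12 with TPM and -0.05 after GC and length correction. TRIB3, a pseudokinase gene induced by ATF4 and CHOP that feeds back on ATF4, was at 69.0 CPM in the GSK484 library, against 68.1 in CON and 68.8 in NT. On the CPM scale it differed by less than counting error in all 3 comparisons. With TPM its log2 fold was 0.12 in GSK484 over CON and -0.14 in CON over NT. After GC and length correction it was -0.10 in GSK484 over NT and -0.13 in CON over NT.

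CEBPB (ENSG00000172216), a C/EBP factor that can pair with ATF4, was at 67.5 CPM in the GSK484 library, against 80.3 in CON and 63.0 in NT. CON was the highest library, and GSK484 was below it by a log2 fold of -0.25 (interval -0.30 to -0.20). NUPR1, a small stress-induced nuclear protein gene, had the lowest CPM fold of the 6 against CON, at -0.31 (interval -0.46 to -0.16), just short of a call. Its values were 8.02 CPM in the GSK484 library, against 9.93 in CON and 8.07 in NT. The NUPR1 fold was -0.23 with TPM and -0.14 after GC and length correction, where CEBPB was lower, at -0.24. Against CON, 1 of the 6 was higher and 4 were lower beyond counting error, where 26.9% of all genes were higher and 27.4% lower. The role's median was -0.13 on the log2 scale, and -0.01 after GC and length correction. The reads of ATF4, ATF5 and DDIT3 were divided with other genes by RSEM, since their expected counts were not whole in every library. DDIT3 overlaps MARS1, the methionyl-tRNA synthetase gene, in RefSeq (GRCh38.p14), and the labels do not say whether counting used strand, so reads of the overlap cannot be assigned with certainty.

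The stress effectors held both calls. DDIT4 (ENSG00000168209) was at 1073 CPM in the GSK484 library, against 1349.7 in CON and 1125 in NT. CON stood above both other libraries, and the log2 fold of GSK484 over CON was -0.33 (interval -0.34 to -0.32), or 1.26-fold lower. This lies at the edge of the rule, and DDIT4 was no longer called with total-count scaling (-0.29), with the deposited TPM (-0.21) or after GC and length correction (-0.27). VLDLR (ENSG00000147852), a lipoprotein receptor gene that ATF4 is known to induce, was at 4.0 CPM in the GSK484 library, against 5.26 in CON and 5.45 in NT. These rest on 312 counts in the GSK484 library, against 480 in CON and 388 in NT. GSK484 was the lowest library, 1.31-fold lower than CON (log2 fold -0.39, interval -0.60 to -0.19). The VLDLR fold was -0.45 after GC and length correction and -0.28 with the deposited TPM, where it was no longer called. An antisense gene overlaps VLDLR in RefSeq, and the strand setting of the counting is not known.

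CHAC1 (ENSG00000128965) had 87 counts in the GSK484 library, against 129 in CON and 73 in NT, which is 1.12 CPM for GSK484, 1.41 for CON and 1.02 for NT. At this depth a difference between GSK484 and CON was not detectable (log2 fold -0.34, interval -0.75 to 0.06). The deposited TPM gave CHAC1 the other order of GSK484 and CON (log2 ratio 0.26), beside an effective transcript length of 1161 bases in the GSK484 library, against 1648 in CON and 1401 in NT. This length is the abundance-weighted mean over the isoforms of a gene as RSEM estimated them, and it enters TPM but not CPM. Its part in the difference between the scales follows from how TPM is computed, while whether the isoforms differed was not tested. Both remaining effectors were within counting error. SESN2, a gene whose protein senses leucine and restrains mTORC1, was at a log2 fold of -0.06 (interval -0.14 to 0.02), and STC2, a secreted stanniocalcin gene, at 0.01 (interval -0.04 to 0.05).

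The 8 genes of amino acid and one-carbon synthesis had log2 folds from -0.12 to 0.07 in GSK484 against CON. ASNS (ENSG00000070669), which makes asparagine and is the classical ATF4 target, was at 53.7 CPM in the GSK484 library, against 56.2 in CON and 53.7 in NT. The GSK484 and NT values coincided, and GSK484 was below CON by a log2 fold of -0.07 (interval -0.13 to -0.01), which was 0.06 under TPM and 0.0047 after that correction. The serine pathway genes PHGDH, PSAT1 and PSPH had log2 folds of -0.07, -0.01 and -0.03 against CON. SHMT2, which passes the serine carbon to folate in mitochondria, was the lowest, at -0.12 (interval -0.15 to -0.10), and its TPM was 208 in both libraries. MTHFD2, the next enzyme of mitochondrial folate metabolism, was at 0.06, and the proline synthesis genes ALDH18A1 and PYCR1 were at 0.07 and -0.04. Of the 8 genes, 2 were higher, 3 lower and 3 within counting error, and none was called. Over all genes 26.9% were higher and 27.4% lower beyond counting error.

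Among the 6 amino acid transporters none was called against CON. SLC38A2 (ENSG00000134294), the SNAT2 carrier of small neutral amino acids that is known to respond to their withdrawal, was at 159 CPM in the GSK484 library, against 139 in CON and 186 in NT. GSK484 lay between the others, with a log2 fold of 0.19 against CON (interval 0.16 to 0.23), which was -0.03 after GC and length correction. SLC3A2 and SLC7A5, the heavy and light chains of the LAT1 leucine exchanger, had log2 folds of -0.05 and -0.07, and SLC1A5, the glutamine carrier ASCT2, of 0.06. SLC7A1, an arginine and lysine carrier, was within counting error at 0.01. SLC1A4, with 148 counts in the GSK484 library, against 201 in CON and 125 in NT, was within it at -0.21 (interval -0.53 to 0.10).

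For the role of transfer RNA charging and export, the median against CON was 0.06 in CPM and 0.11 in TPM. It was 0.08 after GC and length correction. No other role was above 0 on all 3, but some of the surrounding gene lists were. In the same order, the medians of other cytosolic synthetase and scaffold genes were 0.0017, 0.118 and 0.025. Those of the eIF2 kinases and related upstream genes were 0.04, 0.19 and 0.07. All genes were at -0.0056, 0.097 and 0.014, so the TPM median of the role lay near theirs. Of the 7 aminoacyl-tRNA synthetase genes and XPOT, the nuclear exporter of transfer RNA, 4 were higher and 2 lower beyond counting error. By that rule 26.9% of all genes were higher and 27.4% lower. EPRS1 (ENSG00000136628), the fused glutamyl and prolyl synthetase, was at 202 CPM in the GSK484 library, against 167 in CON and 235 in NT. CON was the lowest library, and GSK484 lay above it by a log2 fold of 0.28 (interval 0.25 to 0.31), short of a call, and was called with the deposited TPM, at 0.37. Against NT the EPRS1 fold was -0.22 in CPM and -0.02 with TPM. Its effective length was 2378 bases in the GSK484 library, against 2346 in CON and 2743 in NT. The asparaginyl and alanyl synthetase genes NARS1 and AARS1 followed EPRS1 in their CPM folds against CON, at 0.18 and 0.13. GARS1, SARS1, MARS1 and WARS1, for glycine, serine, methionine and tryptophan, lay between -0.08 and 0.02. For the 10 genes with the TGATGNAA core the median against CON was -0.0035, and for the 19 with a window but no core in it -0.035, with 0 and 2 called. Sequence outside the windows was not searched, so these 19 genes may carry the core elsewhere.

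**Figure D2:**
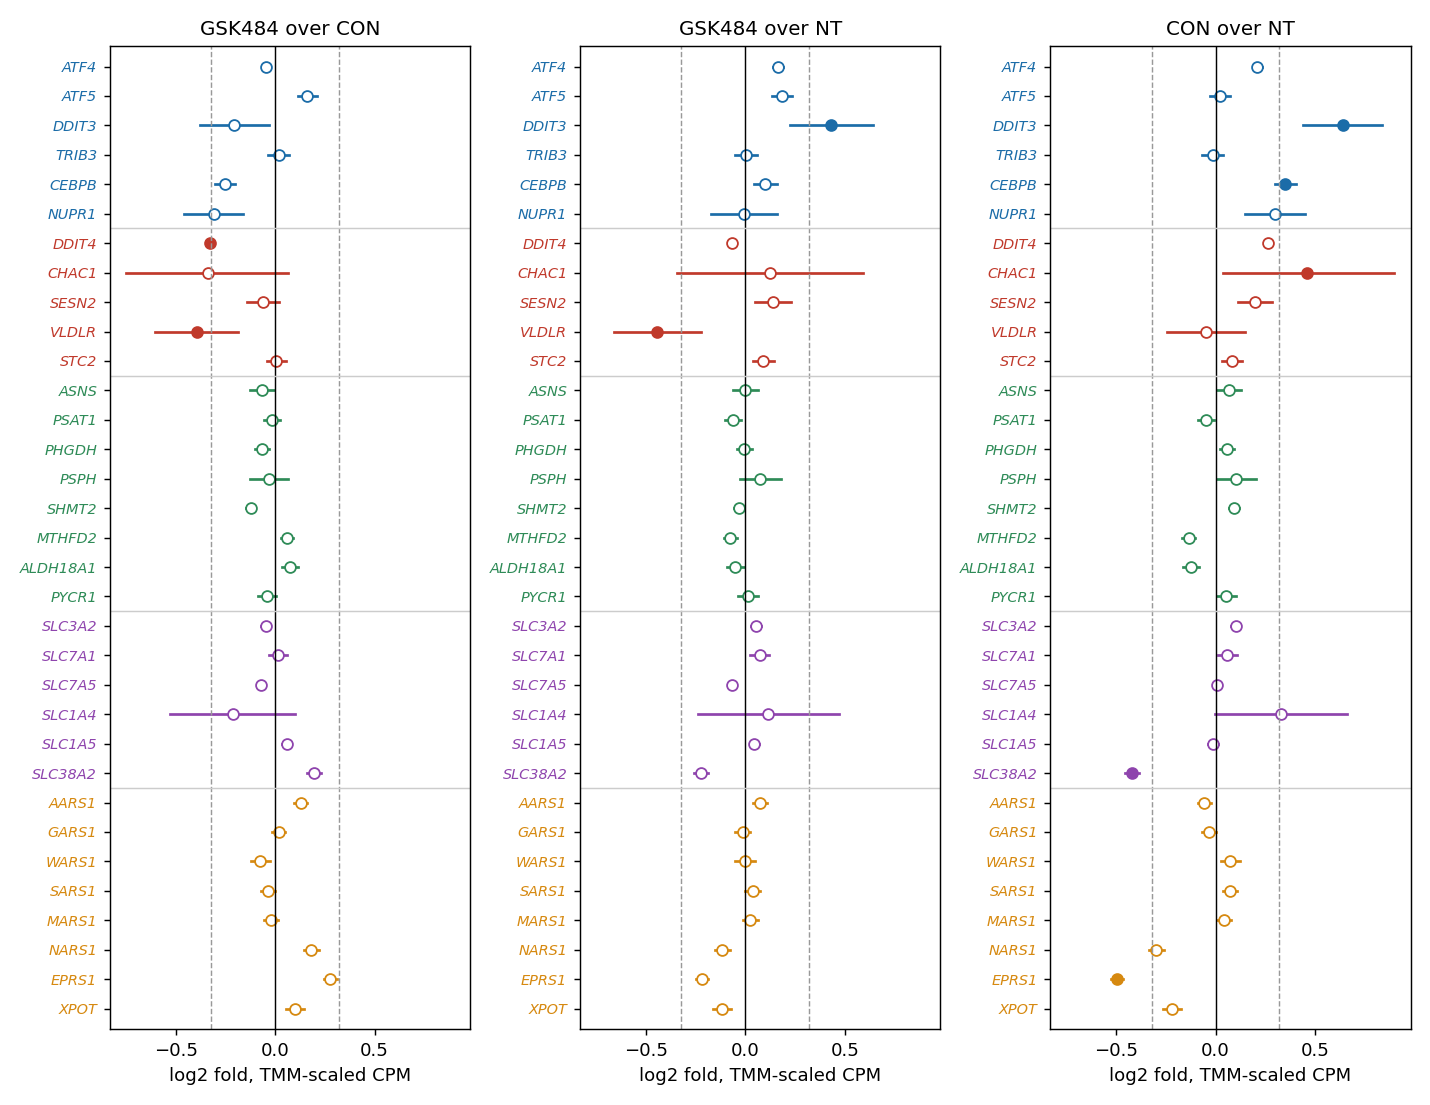
log2 fold of TMM-scaled CPM for each of the 33 genes in GSK484 over CON, GSK484 over NT and CON over NT. Lines are 95% counting intervals, dashed lines mark a log2 fold of 0.32 in each direction and filled points are called: DDIT4 and VLDLR in the left panel, DDIT3 and VLDLR in the middle, and DDIT3, CEBPB, CHAC1, SLC38A2 and EPRS1 on the right.

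For inhibitor-treated cells the second comparison is with untreated ones, GSK484 against NT. DDIT3 was called higher, 1.35-fold above NT (log2 fold 0.43, interval 0.22 to 0.64), and VLDLR was called lower, 1.36-fold below NT (log2 fold -0.44, interval -0.66 to -0.23). Each is 3.03% of the 33 genes, where 5.04% of the 13209 genes compared were called higher and 7.47% lower. With the GC and length trend removed DDIT3 was at 0.35 and VLDLR at -0.36, and both were called, as they were with TPM and with each scaling. Beyond counting error 11 of the 33 were higher, 11 lower and 11 within it, against 27% and 29.8% of all genes. The median of the set was 0.0035 and that of all genes -0.0043 on the log2 scale. After GC and length correction these medians were -0.039 and -0.014. ATF4 was above NT by a log2 fold of 0.16 (interval 0.14 to 0.19), or 0.05 after that correction, and ATF5 by 0.19, or 0.07. By a 2-fold minimum no member was called, where 0.257% of all genes were higher and 0.28% lower.

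The control compound compared with no treatment, CON against NT, held the most calls of the 3 comparisons, 3 higher and 2 lower. These are 9.09% and 6.06% of the 33 genes, where 6.88% of the 13221 genes compared were called higher and 14.6% lower. DDIT3 was 1.56-fold higher (log2 fold 0.64, interval 0.44 to 0.84), the largest fold of the set on the CPM scale in the 3 comparisons. With TPM the SLC38A2 fold below was larger in size (-0.55, against 0.51 for DDIT3), and after GC and length correction that of VLDLR in GSK484 against CON was (-0.45, against 0.40). CEBPB was 1.28-fold higher (log2 fold 0.35, interval 0.30 to 0.41) and CHAC1 1.38-fold higher (log2 fold 0.46, interval 0.04 to 0.90). EPRS1 was 1.41-fold lower (log2 fold -0.50, interval -0.53 to -0.46) and SLC38A2 1.34-fold lower (log2 fold -0.42, interval -0.46 to -0.39). DDIT3 and EPRS1 were called under each scaling, with TPM and after GC and length correction, which left them at 0.40 and -0.39. CEBPB and CHAC1 were not called with total-count scaling, with TPM or after that correction, which left them at 0.16 and 0.28. NUPR1, SESN2 and DDIT4 lay on the same side of NT, short of a call, at 0.30, 0.20 and 0.26, which were 0.05, 0.14 and 0.10 after GC and length correction. NARS1, at -0.30, was called lower with total-count scaling and with TPM, and SLC1A4, at 0.33 with an interval that included 0, was called higher after that correction, at 0.41. By a 2-fold minimum no member was called, where 0.333% of all genes were higher and 1.35% lower.

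The 6 regulators had a median log2 fold of 0.25 in CON over NT and the 5 stress effectors of 0.20. The enzymes were at 0.06, the transporters at 0.03 and the genes of transfer RNA charging and export at -0.04. With the GC and length trend removed these medians were 0.03, 0.10, -0.03, -0.01 and -0.09. Over the whole set 18 genes were higher and 8 lower beyond counting error, with 35.3% of all genes higher and 29.6% lower. The set's median was 0.06 on the CPM scale and -0.07 on the TPM scale, where all genes were at 0.03 and -0.08. GSK484 lay between CON and NT for 19 of the 33 genes (57.6%), and for 48.6% of the 13312 genes of at least 1 CPM in a library. On the TPM scale these shares were 45.5% and 43.6%. The comparisons share libraries, so a value particular to CON enters both GSK484 against CON and CON against NT.

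**Figure D3:**
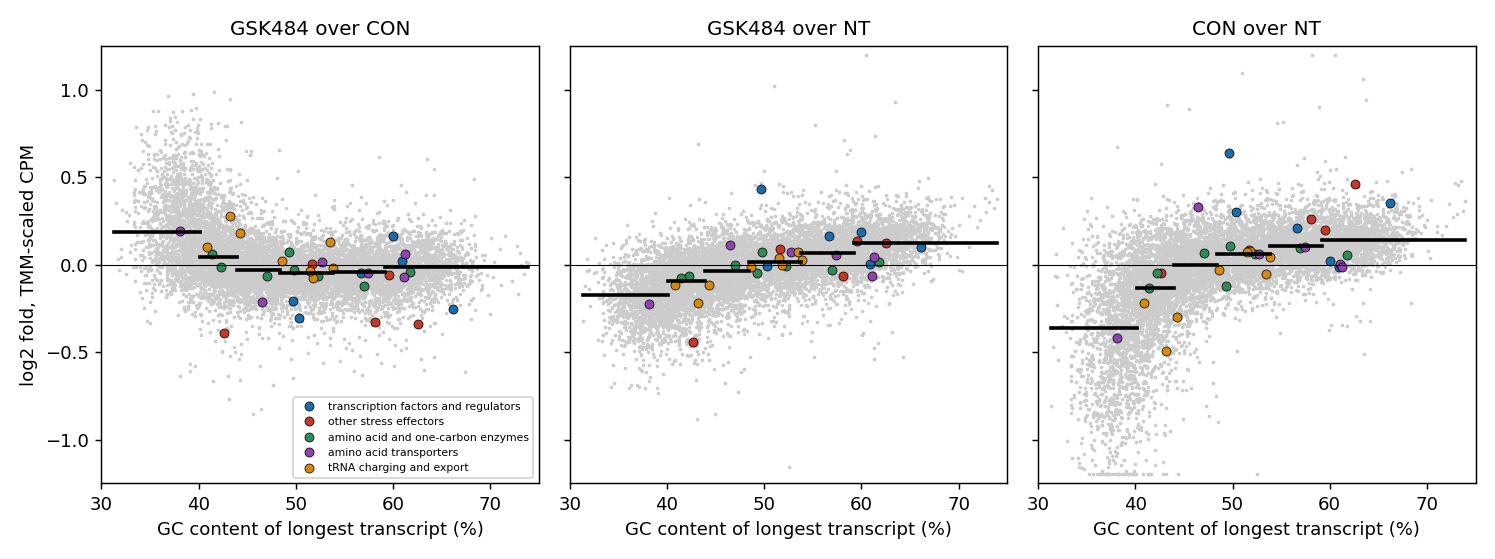
log2 fold of TMM-scaled CPM against the GC content of the longest annotated transcript in the 3 comparisons. Coloured points are the 33 genes by role, grey points are the other protein-coding genes of at least 10 CPM in a library (drawn at the edge where beyond it) and black bars are medians of all these genes by sixths of GC content; in CON over NT the bars rise from left to right and SLC38A2, at 38.1% GC, lies near the lowest of them.

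GC content moved with these differences across all genes, and its values stand here beside the set. In CON over NT the median log2 fold of 8874 protein-coding genes was -0.36 in the lowest sixth of GC content and 0.14 in the highest. In GSK484 over CON it was 0.19 and -0.02, and in GSK484 over NT -0.17 and 0.12. The median GC content of the 33 genes was 51.8%, against 48.4% for the coding genes. SLC38A2, the only member in the lowest sixth, had a log2 fold of -0.42 in CON over NT, or -0.0012 after that correction. EPRS1 and VLDLR, at 43.2% and 42.7% GC, lay in the next sixth, where the median was -0.14 in CON over NT and 0.04 in GSK484 over CON. VLDLR was at -0.05 in CON over NT (interval -0.25 to 0.15) and -0.39 in GSK484 over CON, and EPRS1 was at -0.50 and 0.28. CEBPB, at 66.2% GC, and CHAC1, at 62.6%, lay in the highest sixth, on the side of its median in CON over NT. The source of the GC difference between the libraries was not tested.

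Genes around the set were read from lists of their upstream kinases, related enzymes and other targets. Of 16 genes for eIF2 kinases, the GCN2 regulators GCN1 and IMPACT, eIF2, its exchange factor eIF2B and its phosphatase subunits, none was called in GSK484 against CON. Beyond counting error 8 were higher and 3 lower, where 26.9% of all genes were higher and 27.4% lower. The median of these 16 genes was 0.04, or 0.07 after GC and length correction and 0.19 with TPM. All genes were at -0.0056, 0.014 and 0.097. The amino acid sensor kinase gene EIF2AK4, which encodes GCN2, was within counting error at 0.02 (interval -0.03 to 0.08), and both it and PPP1R15A, at -0.06, are named outside the rule for naming genes. Of 16 other cytosolic synthetase and scaffold genes none was called, with a median of 0.0017. Of 17 mitochondrial synthetase genes only PARS2, the prolyl synthetase, was called, at 3.99 CPM in the GSK484 library, against 5.13 in CON and 5.24 in NT. Its log2 fold of -0.36 was -0.24 with TPM and -0.32 after GC and length correction, short of a call in both. Among 8 measured of 13 other transporters none was called, and among 15 measured of 16 folate, glycine and proline enzymes only AMT, a glycine cleavage gene, was, lower at 1.15 CPM in the GSK484 library, against 1.73 in CON and 1.19 in NT. The log2 fold of AMT was -0.58 on the CPM scale and -0.07 with TPM.

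Of 18 other genes known to respond to ATF4, 13 were measured, and 1 was called higher and 2 lower in GSK484 against CON, where 8.99% of all genes were higher and 4.48% lower. Their median absolute log2 fold was 0.11, as over all genes. Their median was -0.10, which was 0.024 with TPM and -0.030 after GC and length correction. SLC7A11, the cystine carrier gene that also responds to NRF2, was at 32.5 CPM in the GSK484 library, against 21.1 in CON and 41.0 in NT. CON was the lowest there and GSK484 lay between the others. SLC7A11 is at 35.4% GC, and its log2 fold of 0.62 against CON was 0.321 after GC and length correction, just under the minimum of 0.322, so that it was no longer called. ATF3, a stress-induced factor gene, was at 5.39 CPM in the GSK484 library, against 8.25 in CON and 8.94 in NT, so that GSK484 was the lowest. Its log2 fold was -0.61 against CON (interval -0.79 to -0.44) and -0.73 against NT (interval -0.91 to -0.55). The ATF3 fold against CON was -0.56 with TPM and -0.54 after GC and length correction. GDF15, a secreted stress factor gene, was at 78.1 CPM in the GSK484 library, against 114 in CON and 83.5 in NT, with CON the highest, as for DDIT4 and CEBPB. Its log2 fold against CON was -0.54 (interval -0.59 to -0.49), or -0.43 with TPM and -0.45 after that correction. The folds of ATF3 and GDF15 against CON thus stayed beyond the minimum of 0.322 in size with TPM and after correction. Of 17 endoplasmic reticulum chaperone and degradation genes 2 were called higher, DNAJC3, at 10.3 CPM in the GSK484 library, against 6.98 in CON and 10.7 in NT, and HSP90B1, whose reads were divided, at 1457 CPM in the GSK484 library, against 1116 in CON and 1361 in NT. Of all genes 8.99% were called higher, so that 2 of 17 is near the background. After GC and length correction DNAJC3 was at a log2 fold of 0.48, and HSP90B1 at 0.31 was no longer called.

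**Figure D4:**
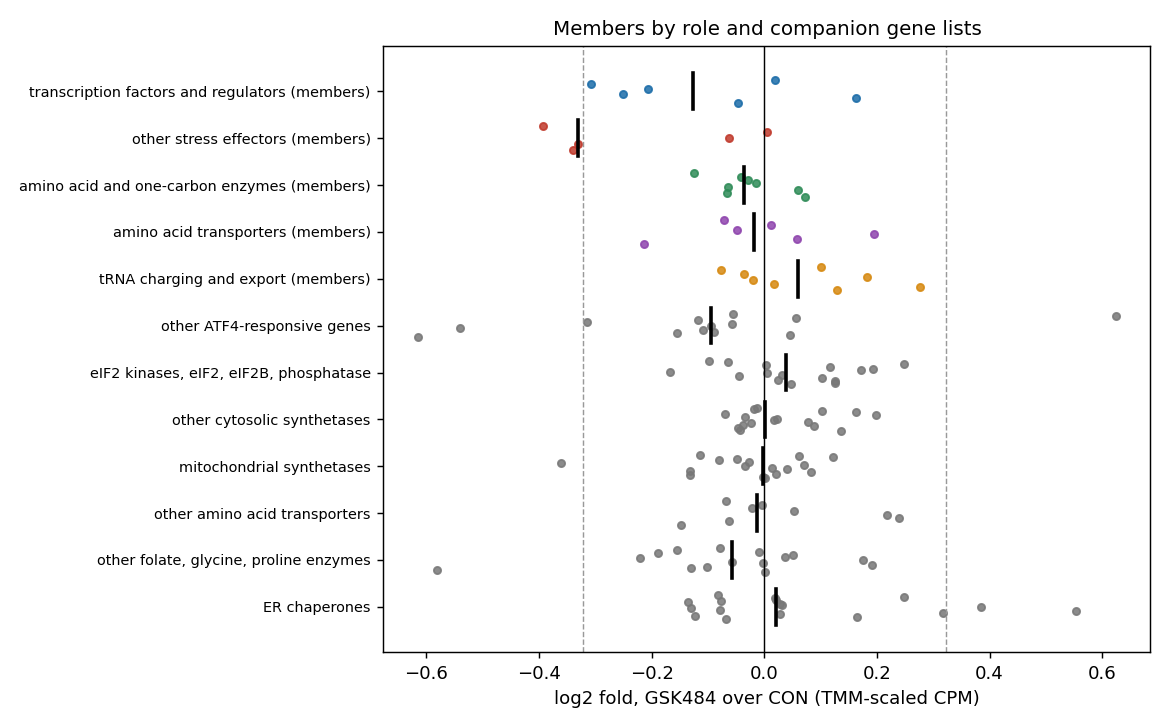
log2 fold of TMM-scaled CPM in GSK484 over CON for the 33 genes by role (coloured) and for the surrounding gene lists (grey), 1 point per measured gene, with the median of each row as a black bar and dashed lines at a log2 fold of 0.32 in each direction. Most points lie inside the dashed lines, and the points farthest out are SLC7A11 and DNAJC3 on the right and ATF3, AMT and GDF15 on the left.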

How the data were processed

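The authors quantified genes with RSEM on hg19, per the submitters' processing notes. Aligner, versions, annotation release and strand setting were not given in the sources used here. The deposited expected counts are estimates of reads per gene without normalization, per the file headers. The TPM that the authors deposited accounts for effective length and has 1 common total across libraries. Expected counts were scaled to CPM with TMM factors (edgeR 4.0.16, R 4.3.3), 1.01 in GSK484, 0.981 in CON and 1.01 in NT. A prior count of 0.5, scaled by library, entered the log2 folds, and intervals used counts rounded to whole numbers. The code was tested on simulated data.

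Symbols were matched by gene ID, and 164 of 166 list entries were found. GC content came from GENCODE release 29 transcripts, of another build, so it was used without coordinates. The GC and length trend was a spline fit to coding genes of at least 10 CPM. Counts within 0.005 of a whole number were taken as whole, which held in all libraries for 24 of the 33 genes. The members and lists were chosen with earlier results of these data known. Values in every library were to be given for ATF4, ATF5, DDIT3, TRIB3, ASNS, CHAC1 and each called member, and from the surrounding lists at most the 3 called genes of largest fold; other genes named were chosen after their values were seen. The main minimum was a 25% excess. Alternatives were other scalings, TPM with a pseudocount of 0.1, a prior count of 2, no CPM minimum, trend removal, a minimum of 1.5 and members with whole counts only. PCR copies could not be separated from molecules.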

Additional observations from a re-analysis of the deposited data

How the results depend on the processing

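No paired analysis was possible because each group had 1 library, and for the same reason no library could be left out. In GSK484 against CON, 2 members were lower and 0 higher. The lower count was 1 with total-count scaling and after GC and length correction, and 0 with a fold minimum of 1.5. With the deposited TPM 0 were lower and 1 higher, and the median log2 fold was 0.086, in place of -0.035. In GSK484 against NT, 1 was higher and 1 lower, with 0 and 0 at a fold minimum of 1.5 and 0 higher among members with whole counts, which leave out DDIT3. In CON against NT, 3 were higher and 2 lower. The higher count was 1 with total-count scaling, with TPM and with a fold minimum of 1.5, and 2 after GC and length correction, where SLC1A4 was added and CEBPB and CHAC1 were lost. The lower count was 3 with total-count scaling and with TPM, where NARS1 was added, 1 after that correction and 0 with a fold minimum of 1.5. The median there was 0.059, and 0.017 with total-count scaling, -0.070 with TPM and -0.016 after that correction. TPM moved the median of all genes to 0.097 (main -0.0056) in GSK484 against CON and to -0.083 (main 0.026) in CON against NT. The share of higher among all called genes was 66.8% in GSK484 against CON and 82.8% with TPM, and 32% in CON against NT and 16.2% with TPM. Log2 folds were recomputed for ATF4, ATF5, DDIT3, TRIB3, ASNS, CHAC1 and each called member only. Of these 165 folds, 117 stayed inside their main counting interval and 48 did not. None of these genes changed sign in a comparison where it was called. In other comparisons CHAC1, ATF4, ATF5, TRIB3 and ASNS did with TPM. After GC and length correction the same genes changed sign, and so did SLC38A2, CEBPB and VLDLR. With total-count scaling ATF5 and ASNS changed sign, and with scaling by median ratios TRIB3 and ASNS. Members left out of that check changed sign too, such as SESN2 in GSK484 against CON (-0.06 in CPM, 0.05 in TPM). In that comparison 13 of the 33 log2 folds were above 0 in CPM and 27 in TPM. Causes were not tested, apart from the members that an alternative removes by its construction. The depth limits CHAC1 and SLC1A4, with 73 to 201 counts a library.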
